A study of Mus musculus with 4 samples.

Results

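Immediate early response genes are switched on within minutes of a signal, without new protein having to be made first, and are usually shut off again soon after. In liver they answer growth factors, hormones such as glucagon, feeding, injury and stress, mostly through MAP kinases acting on serum response factor and its partners, and through cyclic AMP acting on CREB. Their products are of 2 broad kinds, transcription factors that pass the signal on to later genes and brakes that end it. The 10 genes described here are Egr1, Nr4a1, Fos, Jun, Junb, Ier2, Ier3, Btg2, Dusp1 and Zfp36. They were chosen by name, as probe sets whose platform annotation gives exactly 1 of these symbols. All 10 were found among 22180 genes of the table, each with a single probe set.

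The study hybridised pooled liver RNA of C57BL/6 mice to 4 Affymetrix arrays, 1 for each pool. The chow pool held 7 wild-type (WT) mice on regular chow. The other pools were given a diet of 70% fructose, which 7 WT mice ate for 3 weeks (the 3-week WT pool), 4 WT mice for 2 weeks (the 2-week WT pool) and 6 Chrebp null mice likewise for 2 weeks (the Chrebp-null pool). All mice were older than 2 months, both sexes were in every pool, and food and water were freely available. The gene Mlxipl encodes ChREBP, a sugar-responsive transcription factor. The null pool is given only as Chrebp null, so which part of the gene is lost and how the WT mice were related to the null mice are not stated in the labels. Nor are the hour at which livers were taken and the feeding state at that time, to which early genes are sensitive. Per the series design there are 2 comparisons, with no array in common. The fructose comparison is the 3-week WT pool minus the chow pool, and the Chrebp-null comparison is the Chrebp-null pool minus the 2-week WT pool.

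Each pool had 1 array, so no value has a replicate error and no test was possible. All values are log2 levels as deposited, and a difference is 1 array minus another. Levels of different genes are not set against each other, since probes differ in brightness. A gene was assessed in a comparison where the higher of its 2 levels reached a floor of 3.52, taken as the middle of all genes' mean levels, and was counted from a 2-fold difference on (1 on the log2 scale). Array medians lay between 3.11 and 3.17. Mlxipl read 9.25 on chow, 9.64 and 9.83 in the 3-week and 2-week WT pools, and 8.09 in the Chrebp-null pool, the direction of the genotype label. Hepatocyte markers fixed for the check, such as Alb and Ttr, were all above the floor in every pool, with a mean level of the 5 between 11.72 and 11.81.

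The promoters of 4 of the genes are shown. Their levels differed by at least 2-fold between pools, and each carries letters that CREB, EGR or Jun proteins are known to bind. Junb met both conditions too and is not shown. The stretches shown are the 250 bases before the annotated start from RefSeq's GRCm38.p6 promoters, read 5′ to 3′ on the gene's own strand. That table held 8 of the 10 genes. Capitals mark matches, on either strand, to TGACGTCA (the cyclic AMP response element), to its core TGACG, to TGACATCA (a form known from the Jun promoter), to GCGNGGGCG (the EGR site) and to CACGTG (an E-box). The core TGACG lies inside TGACGTCA, so those matches overlap. The motifs TGANTCA (the AP-1 site) and the CArG box, which serum response factor binds, were searched too.
Nr4a1, chr15:101266596-101266845, plus strand: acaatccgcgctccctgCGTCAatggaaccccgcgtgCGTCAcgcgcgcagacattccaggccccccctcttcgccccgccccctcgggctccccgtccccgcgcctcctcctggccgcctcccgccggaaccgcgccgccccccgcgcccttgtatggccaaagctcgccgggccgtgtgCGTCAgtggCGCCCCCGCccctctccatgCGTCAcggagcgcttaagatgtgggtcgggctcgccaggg
Btg2, chr1:134079156-134079405, minus strand: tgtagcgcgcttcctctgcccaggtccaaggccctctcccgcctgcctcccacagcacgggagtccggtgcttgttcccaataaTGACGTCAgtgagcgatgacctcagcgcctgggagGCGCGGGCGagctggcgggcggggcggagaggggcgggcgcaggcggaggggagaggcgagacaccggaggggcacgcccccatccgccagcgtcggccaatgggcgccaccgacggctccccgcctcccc
Jun, chr4:95052223-95052472, minus strand: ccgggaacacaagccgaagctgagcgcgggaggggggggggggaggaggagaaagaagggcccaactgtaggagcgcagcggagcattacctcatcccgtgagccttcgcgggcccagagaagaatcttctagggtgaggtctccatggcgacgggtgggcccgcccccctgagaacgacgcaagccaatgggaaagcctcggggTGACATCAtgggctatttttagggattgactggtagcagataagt
Dusp1, chr17:26508473-26508722, minus strand: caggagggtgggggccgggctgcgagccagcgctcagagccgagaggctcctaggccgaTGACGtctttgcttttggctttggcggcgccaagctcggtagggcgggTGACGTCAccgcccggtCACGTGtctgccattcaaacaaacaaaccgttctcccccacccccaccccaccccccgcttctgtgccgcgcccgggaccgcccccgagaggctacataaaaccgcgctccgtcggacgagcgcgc

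In Nr4a1 the core TGACG lay at 4 places on the minus strand, the nearest between 40 and 36 bases before the start, and an EGR match lay between 60 and 52 bases before it. Its window precedes a start inside the gene's annotated span. Btg2 had the whole TGACGTCA between 166 and 159 bases before its start and an EGR match between 131 and 123, and Dusp1 had TGACGTCA between 143 and 136. Jun had TGACATCA between 45 and 38. The whole TGACGTCA was in 2 of the 8 member windows and in 1.55% of all 32851 windows of the table, the core TGACG in 5 of 8 and in 17.8%, and the EGR site in 3 of 8 (Zfp36 besides the pair above) and in 4.70%. The CArG box was in 1 of 8, Zfp36, and in 1.47%, CACGTG in 1 of 8 and in 6.02%, TGACATCA in 1 of 8 and in 2.93%. No member window held TGANTCA, which 6.75% of all windows held. These matches are letters in a short window and are not measured binding.

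Across the 4 pools, the early genes did not move as a block. The 3-week WT array gave the lowest of the 4 levels for 8 of the 10 genes, Egr1, Nr4a1, Fos, Jun, Junb, Btg2, Dusp1 and Zfp36. For Fos all 3 WT levels lay below the floor, and Btg2 read nearly the same in the 3-week and 2-week WT pools, 4.92 and 4.99. The 3-week WT array was also the lowest for 34.3% of the 12194 genes at or above the floor on some array. The highest level was in the 2-week WT pool for Egr1, Ier2, Dusp1 and Zfp36, in the Chrebp-null pool for Fos, Jun and Btg2, in the chow pool for Nr4a1 and Junb, and in the 3-week WT pool for Ier3. Over all genes these arrays were the highest for 16.8%, 37.6%, 23.5% and 22.1%. The lowest level lay in the 2-week WT pool for Ier3 and in the Chrebp-null pool for Ier2, where 27.3% and 17.7% of all genes had theirs. The chow array was the lowest for none of the 10, and for 20.7% of all genes. In bulk RNA, fewer cells of a type and less RNA per cell cannot be told apart.

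**Figure D1:**
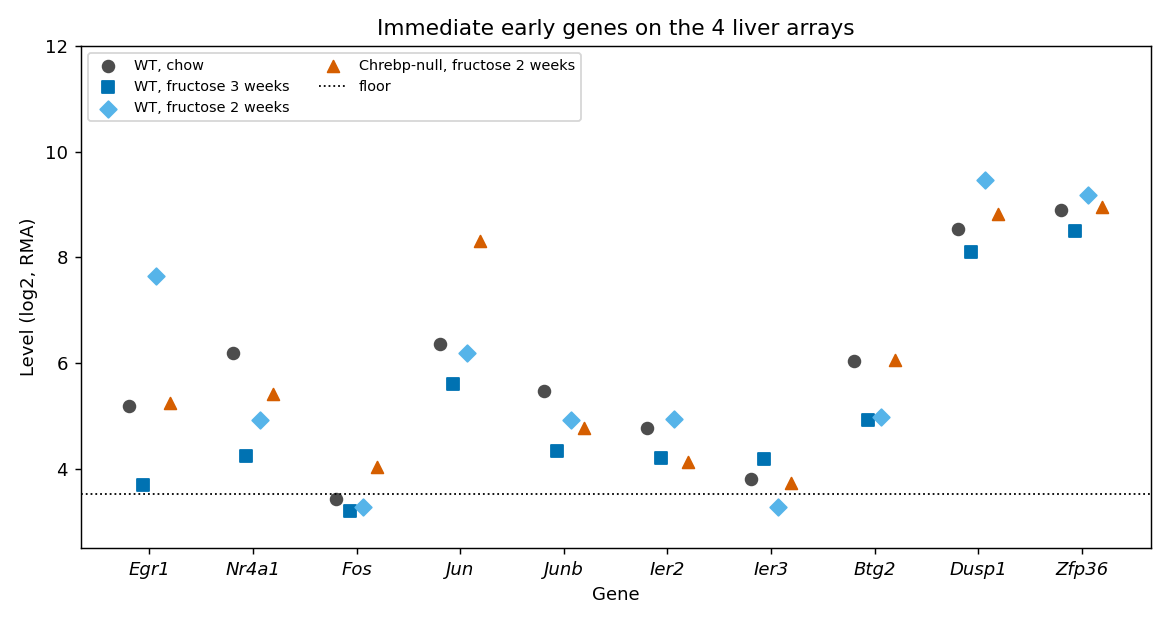
Levels (log2, RMA) of the 10 genes on the 4 arrays, 1 point per pool, with the floor of 3.52 as a dotted line; heights are to be compared within a gene only. Egr1 spans 3.96 between the 3-week and the 2-week WT pools, and Jun stands at 8.32 in the Chrebp-null pool, above its 5.60 to 6.36 in the WT pools.

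Egr1 encodes a zinc finger transcription factor and varied most of the 10. It read 5.19 on chow, 3.69 in the 3-week WT pool, 7.65 in the 2-week WT pool and 5.25 in the Chrebp-null pool. The chow and Chrebp-null pools were nearly level, and the WT fructose pools stood on opposite sides of them. Egr1 was lower than chow by a log2 difference of -1.50 after 3 weeks, a ratio of 2.82, and higher than chow by 2.46 after 2 weeks, a ratio of 5.49. Between the WT fructose pools the difference was -3.96, a ratio of 15.5, the lowest of all 11648 genes assessed in that pair. The Chrebp-null comparison gave -2.40, a ratio of 5.28, whereas the same null array minus the 3-week WT array gave 1.56. The sign of Egr1 thus turned in both comparisons with the WT fructose pool used.

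Nr4a1 encodes an orphan nuclear receptor, known in liver as a gene that glucagon and cyclic AMP induce. Its levels were 6.20 on chow, 4.24 in the 3-week WT pool, 4.92 in the 2-week WT pool and 5.42 in the Chrebp-null pool. All 3 fructose pools read below chow, and the Chrebp-null pool lay between chow and the WT fructose pools. The fructose comparison gave -1.96, a ratio of 3.88, and 6 of the 11717 genes assessed, itself included, had a difference this low. The 2-week WT pool stood at -1.28 over the same chow array. The Chrebp-null comparison gave 0.49, under 2-fold, and the null pool minus the 3-week WT pool gave 1.17.

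Jun, Fos and Junb encode subunits of AP-1, a transcription factor that binds DNA as pairs of Jun proteins or of a Jun and a Fos protein. Jun read 6.36 on chow, 5.60 and 6.20 in the 3-week and 2-week WT pools, and 8.32 without Chrebp. The null pool stood apart from the 3 WT pools. The Chrebp-null comparison gave 2.12, a ratio of 4.34, with 19 of 11631 genes as high. Over the 3-week WT pool the null array stood at 2.72 and over chow at 1.96, and in the fructose comparison Jun was at -0.76, under 2-fold.

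Fos was dim. Its levels of 3.44 on chow, 3.20 in the 3-week and 3.29 in the 2-week WT pool all lay below the floor, and 4.04 in the Chrebp-null pool was its single level above it. Fos was therefore not assessed in the fructose comparison, and in the Chrebp-null comparison its difference was 0.75 as read and 0.52 with the WT level raised to the floor. Junb read 5.48 on chow, 4.35 and 4.93 in the 3-week and 2-week WT pools and 4.77 in the Chrebp-null pool. Chow was the highest of the 4. The fructose comparison gave -1.13, a ratio of 2.19, the 2-week WT pool over chow -0.55, and the Chrebp-null comparison -0.16. The 3 AP-1 genes thus had their largest differences in different places, Jun and Fos with the null array and Junb between the chow and 3-week WT arrays.

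Ier2 and Ier3 are early response genes named for their rapid induction. Ier2 read 4.77 on chow, 4.21 and 4.94 in the 3-week and 2-week WT pools and 4.13 in the Chrebp-null pool. Neither design comparison reached 2-fold, at -0.56 for fructose and -0.80 for Chrebp-null. Ier3, tied to cell survival, read 3.81, 4.18, 3.29 and 3.73 in the same order, close to or below the floor. It was the 1 member with a level above chow in the 3-week WT pool, by 0.37, and its Chrebp-null difference was 0.44.

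Btg2, Dusp1 and Zfp36 are the brakes of the set. Btg2, an antiproliferative gene that p53 is known to induce, read 6.03 on chow, 4.92 and 4.99 in the 3-week and 2-week WT pools and 6.06 in the Chrebp-null pool. The WT fructose pools differed by -0.07, and the chow and Chrebp-null pools by 0.02, so its levels formed a low and a high pair. The fructose comparison gave -1.11, a ratio of 2.16, with the 2-week WT pool at -1.04 over the same chow array. The Chrebp-null comparison gave 1.07, a ratio of 2.10, with the 3-week WT pool as the reference 1.14. The value of 1.07 is near the threshold and falls to 0.97 after quantile normalization and to 0.93 once the lowess trend with expression level is taken off.

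Dusp1 encodes the phosphatase that switches off MAP kinases. It read 8.54 on chow, 8.10 in the 3-week and 9.47 in the 2-week WT pool, and 8.83 in the Chrebp-null pool. Its order over the pools, lowest at 3 weeks and highest at 2 weeks, was that of Egr1 on a smaller scale. The fructose comparison gave -0.44 and the Chrebp-null comparison -0.65, both under 2-fold, while the WT fructose pools differed by -1.37, a ratio of 2.59. Zfp36 encodes tristetraprolin, which binds AU-rich elements and speeds the decay of cytokine mRNAs. It varied least, at 8.90, 8.49, 9.18 and 8.96 in the order chow, 3-week WT, 2-week WT and Chrebp-null, with -0.41 for fructose and -0.22 for Chrebp-null. From lowest to highest, its pools stood in the same order as those of Egr1 and Dusp1.

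In the fructose comparison 4 of the 9 members assessed were at least 2-fold lower, Nr4a1, Egr1, Junb and Btg2, where 1.16% of the 11717 genes assessed were. None was at least 2-fold higher, where 0.640% of all genes were. The member median was -0.76, beside -0.05 over all genes, and 8 of the 9 lay below 0, as did 56.5% of all genes. These members were named with earlier results of these arrays known, so the count describes them and is not an independent sign of a direction. With the 2-week WT pool over chow, which shares the chow array, Nr4a1 and Btg2 stood at least 2-fold lower (1.41% of 11622 genes) and Egr1 at least 2-fold higher (0.783%), and the member median was -0.16. The 2 WT fructose pools are of different mice and feeding times and are not replicates. Egr1 and Dusp1 were at least 2-fold lower in the 3-week than in the 2-week pool among the 9 members assessed, where 1.10% of 11648 genes were, and no member was at least 2-fold higher (1.27%).

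**Figure D2:**
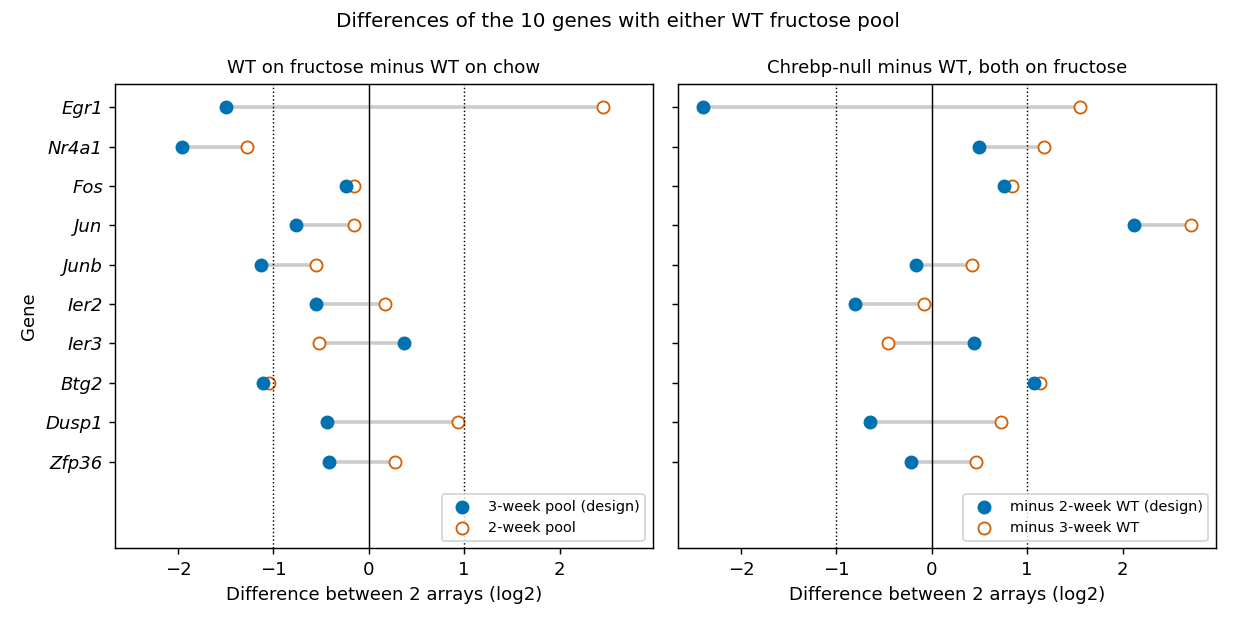
Log2 differences of the 10 genes, filled points for the comparisons the series design names and open points for the same difference with the other WT fructose pool; dotted lines mark 2-fold. Nr4a1 and Btg2 keep to the left in the fructose panel (-1.96 and -1.28, -1.11 and -1.04), Jun to the right in the Chrebp-null panel (2.12 and 2.72), and Egr1 changes sides in both. Fos in the left panel lies below the floor and was not assessed.

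In the Chrebp-null comparison all 10 members were assessed. Jun and Btg2 were at least 2-fold higher, where 2.03% of the 11631 genes were, and Egr1 was at least 2-fold lower, where 1.43% were. The members fell to both sides, 5 above 0 and 5 below. Their median of 0.14 stood beside 0.10 over all genes. After removal of the trend with level the member median was -0.02. The trend is fitted to all assessed genes, so its removal brings their median near 0 by construction (-0.0042). That removal also changed the split of all genes past 2-fold from 236 higher and 166 lower to 140 and 225, and quantile normalization gave 181 and 180. In the fructose comparison the split of 75 higher and 136 lower became 93 and 105 with the trend removed. With the 3-week WT pool as the reference of the same null array, Egr1, Nr4a1, Jun and Btg2 were at least 2-fold higher (3.38% of 11772 genes), none was at least 2-fold lower (1.95%), and the member median was 0.78. Against chow the null pool was at least 2-fold higher for Jun alone (1.66% of 11720 genes) and at least 2-fold lower for none of the 10 (1.43%), with a member median of 0.04.

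**Figure D3:**
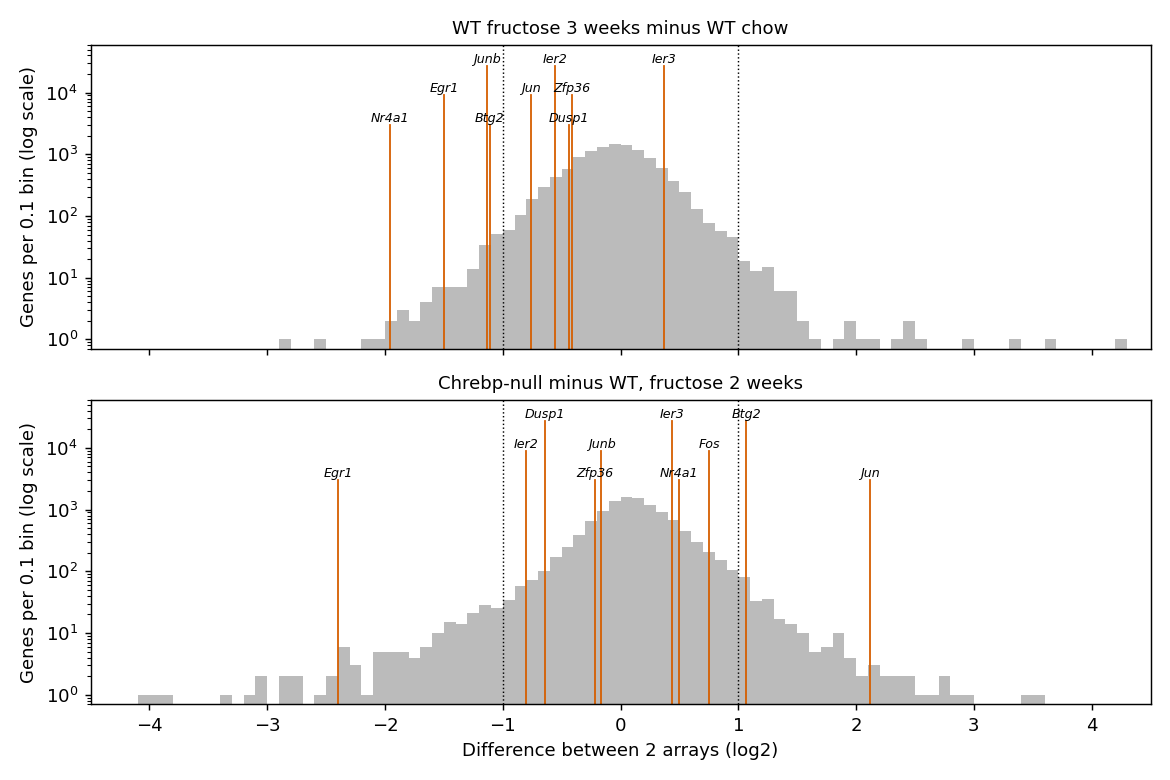
Histograms of the log2 differences of all assessed genes (11717 above, 11631 below; counts on a log scale), with vertical lines at the early genes and dotted lines at 2-fold. In the upper panel 8 of the 9 lines lie left of 0, from -1.96 for Nr4a1; in the lower panel the lines spread from -2.40 for Egr1 to 2.12 for Jun.

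Other genes of the same families and of the signals around them were described from lists. Of 104 such genes measured, 92 were at or above the floor on some array, and the 3-week WT array was the lowest of the 4 for 41 of them (44.6%) and the Chrebp-null array the highest for 40 (43.5%), beside 34.3% and 37.6% of all genes. The counts of each list past 2-fold stand beside 1.16% of all genes lower and 0.640% higher in the fructose comparison. For the Chrebp-null comparison these shares were 1.43% and 2.03%. Among AP-1 relatives 1 of 7 was at least 2-fold lower in the fructose comparison, Jund, which encodes the Jun protein known for steady expression, at -1.23. Its other probe set, dimmer, stood at 0.10, and the mean of both at -0.56, so that with probe sets averaged 0 of 8 passed 2-fold. The list's median was -0.41. Without Chrebp 1 of 6 was at least 2-fold higher than in the 2-week WT pool, the stress gene Atf3 at 2.18, and the median was 0.38. Atf3 read 4.25 on chow, 4.27 and 3.75 in the 3-week and 2-week WT pools and 5.94 in the null pool, where it stood apart from the WT pools as Jun did.

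Of 13 EGR, NR4A and KLF relatives, 1 was at least 2-fold lower on fructose. It was Nab2, a corepressor that EGR proteins bind, at -1.46, from 7.88 on chow to 6.42. Its dimmer probe set stood at -0.12, and the mean of both at -0.79, which ends the call. In the 2-week WT and null pools Nab2 read 7.07 and 7.56, so unlike Egr1 it was below chow in both WT fructose pools. The list's median was -0.05, and 0.03 with the trend removed. Between the Chrebp-null and 2-week WT pools Myc, the growth-related transcription factor, was higher by 1.86, Klf10, a Kruppel-like repressor, stood at -1.61, and the median was 0.11. Nr4a2 and Egr3 varied less over the pools than Nr4a1 and Egr1. Nr4a2 read 3.78 to 4.25 over the 4 pools and Egr3 3.70 to 3.94, while Nr4a3 and Egr2 were below the floor on every array. These 4 were picked as nearest relatives after their values were seen.

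Feedback genes of the DUSP and Sprouty families had no member of 15 past 2-fold on fructose, with a median of -0.08. In the Chrebp-null comparison Dusp8, a phosphatase of stress kinases, was higher by 1.54 and Spry4, an inhibitor of receptor kinase signalling, stood at -0.95, under 2-fold. Under quantile normalization and under trend removal 1 gene of the list was at least 2-fold lower. The null array read 5.01 for Dusp8, while the WT arrays read 3.24 to 3.58. Among IER and BTG relatives, Tob2, an antiproliferative gene of the BTG family, was the 1 of 7 at least 2-fold lower on fructose, at -1.03. Removal of the trend left 0 past 2-fold. Gadd45b, a stress gene, read 4.65 on chow, 3.71 and 4.89 in the 3-week and 2-week WT pools and 5.73 in the null pool, and neither design difference reached 2-fold. In the list of Zfp36 relatives and mRNAs that tristetraprolin is known to act on, none of 8 passed 2-fold in either design comparison. Their medians were -0.52 for fructose and 0.15 for Chrebp-null, with the chemokine Cxcl1 at -0.91 and 0.55.

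Upstream of these genes, 15 of 20 listed kinases, receptors, transcription factors and cofactors were measured. None of the 15 passed 2-fold on fructose, and their median was 0.01 (-0.03 with arrays centred on their medians). Egfr, the epidermal growth factor receptor, was the 1 of 15 past 2-fold in the Chrebp-null comparison, at -1.27, from 10.20 to 8.93. Among YAP and SRF targets 2 of 8 were at least 2-fold lower on fructose, Ccn1, a matricellular early gene, at -1.24 and Actg1, cytoplasmic gamma actin, at -1.07, with a median of -0.65. With probe sets averaged 1 of 8 was and the median was -0.22. Actg1 has 6 probe sets, from -1.07 to 1.20 on fructose with a mean of -0.01, and belongs to a family of near-identical genes, so its value is uncertain. The Chrebp-null pool was at least 2-fold higher than the 2-week WT pool for 2 of 9, Actg1 at 1.26 and Thbs1, a matricellular glycoprotein, at 1.07, with a median of 0.46. Thbs1 read 2.84 in the 2-week WT pool, under the floor. Raising such levels to the floor left 1 of the 9 past 2-fold and a median of 0.21, and trend removal, the 75 percentile floor and averaged probe sets each left 1 as well.

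Among cyclic AMP and fasting targets 3 of 10 were at least 2-fold lower on fructose, where 1.16% of all genes were. The 3 were Igfbp1, an insulin-repressed binding protein, at -2.01, Irs2, an insulin receptor substrate, at -1.42 and the kinase Sik1 at -1.27. G6pc, glucose-6-phosphatase, stood at 0.70, and the list's median was -0.28. In the Chrebp-null comparison G6pc, which ChREBP is known to drive, stood at -2.33 and Pdk4, a pyruvate dehydrogenase kinase, at 1.30. Sik1 and Pdk4 were picked after their values were seen, as those past 2-fold. Glucocorticoid targets had 0 of 9 past 2-fold in both design comparisons, with medians of 0.11 and -0.13. Quantile normalization put 1 at least 2-fold higher in the Chrebp-null comparison, where Mt2, a metallothionein, stood at 0.98 as read. Dusp1 and Zfp36, which glucocorticoids are also known to induce, were under 2-fold in both as well.

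Several of these calls rested on 1 WT fructose pool. With the 2-week WT pool over the same chow array, Jund was at -0.32, Nab2 at -0.81, Tob2 at 0.02, Ccn1 at -0.52, Actg1 at -0.44, Igfbp1 at -0.57 and Sik1 at -0.18, all under 2-fold, and Irs2 at -1.26. With the null array over the 3-week WT pool, Myc was at 0.36 and Thbs1 at 0.36, under 2-fold. Atf3 at 1.67, Dusp8 at 1.77, Klf10 at -1.03, Egfr at -1.71, G6pc at -2.27 and Pdk4 at 1.93 were past it there too.

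**Figure D4:**
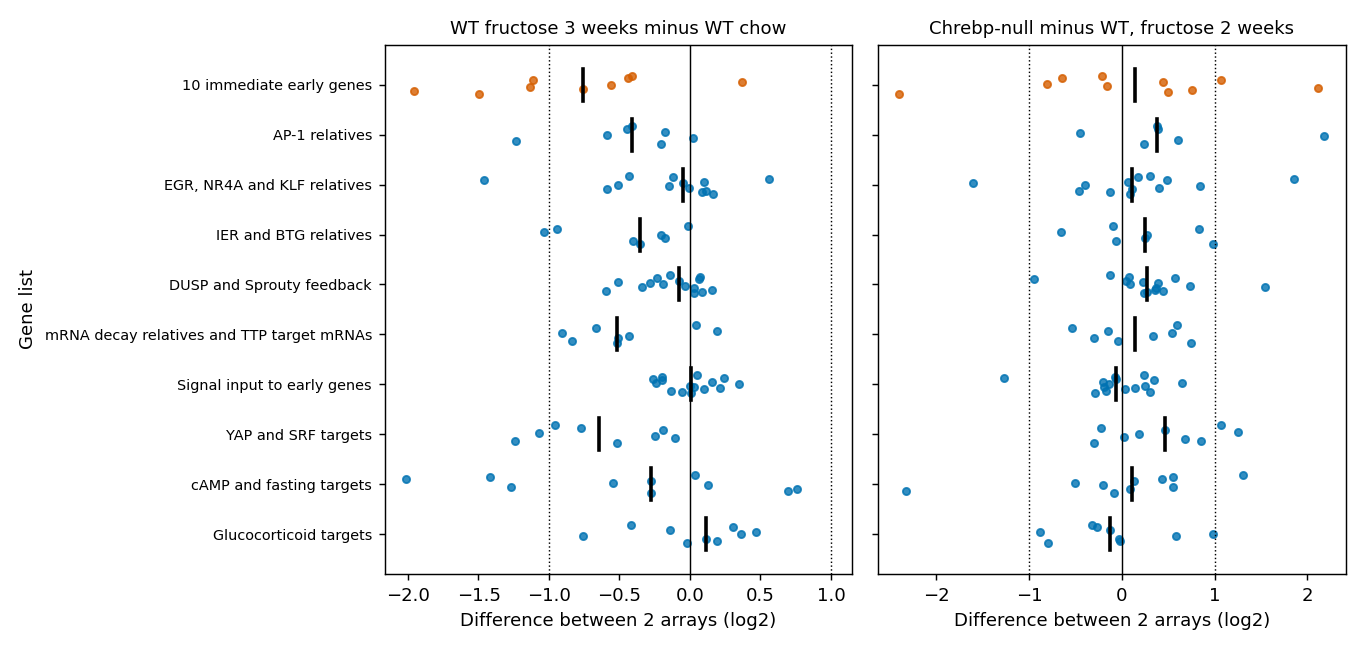
Log2 differences of the assessed genes of each list, 1 point per gene, with a bar at the list's median, for the fructose (left) and the Chrebp-null comparison (right); dotted lines mark 2-fold. On the left the early genes have a median of -0.76 and the YAP and SRF targets -0.65, while signal input genes centre on 0.01; on the right the early genes run from -2.40 to 2.12.

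Genes whose profile over the 4 arrays was nearest to the median profile of the members were Hnrnpf, Cyp27a1, Elac2, Cradd and Zfp120. The measure was the root mean square distance of log2 levels centred on each gene's mean, from 0.0076 for Hnrnpf to 0.026 for Zfp120. The median profile was 0.17 on chow, -0.43 in the 3-week and 0.05 in the 2-week WT pool, and 0.21 in the null pool. The members lay farther from their own median profile, from 0.16 for Zfp36 to 1.30 for Egr1. Over 4 arrays many genes can share a profile, and the nearness is a description only.

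Markers of other liver cells were read on the same arrays. The summed level of the 5 Kupffer cell and macrophage markers, on the log2 scale, was 9.88 on chow, 9.996 and 10.20 in the 3-week and 2-week WT pools and 10.23 in the Chrebp-null pool. Sinusoidal endothelial markers summed to 9.90, 10.26, 10.31 and 9.98 in that order, and stellate cell markers to 8.94, 9.01, 9.29 and 9.18. Cholangiocyte markers (4 of 5 measured) summed to 6.25, 6.03, 6.40 and 6.67 and B cell markers (4 of 5 measured) to 8.40, 8.09, 8.54 and 8.89, lowest in the 3-week WT pool and highest in the Chrebp-null pool. That is also where Fos, Jun and Btg2 were lowest and highest, and the part of those cells in these results was not tested. Among the cholangiocyte markers only Sox9 was itself lowest in the 3-week WT pool and highest in the Chrebp-null pool. It read 5.19, 4.55, 5.14 and 5.74 in the order chow, 3-week WT, 2-week WT and Chrebp-null. Epcam read 4.24, 4.29, 4.98 and 4.71 in that order. Krt7 was lowest in the 2-week WT pool, and Krt19 lay below the floor in every pool. The B cell sum mostly follows 1 bright marker, Ighm, at 8.27, 7.94, 8.38 and 8.80 in the same order. The mean level of the 4 B cell markers was 4.53, 4.32, 4.73 and 4.48, highest in the 2-week WT pool. T and NK cell markers (4 of 5 measured) summed to 6.41, 6.38, 6.13 and 6.10. All 5 neutrophil markers were below the floor on every array. The endothelial sum was lower in the chow and Chrebp-null pools and higher in the WT fructose pools, the reverse of Btg2, and its part in that result was not tested. None of the 5 macrophage and 5 stellate markers was past 2-fold in a design comparison, and the neutrophil markers were not assessed. Lyve1 was the 1 of 5 endothelial markers past 2-fold, at -1.01 in the Chrebp-null comparison, and is named after that value was seen.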

How the data were processed

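Per the submitters' processing notes, the log2 levels that the authors deposited for 41345 probe sets on each array came from affy and RMA, which corrects for background, makes arrays comparable and combines the probes of each set. RMA tends to shrink the differences of dim genes. No version, setting or genome build is named in the labels, nor whether RMA saw all arrays at once. The levels were taken unchanged. Arrays have no read depth, and their number (4) limits the precision.

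Symbols came from the platform annotation, which has 1 for 23521 probe sets, several for 1814 and none for 16010. For a gene with more probe sets, that with the highest mean was used. The rule for named genes took all members, up to 3 genes of each list with the largest absolute design difference, the 5 nearest profiles and Mlxipl. Members and lists were chosen with earlier results of these data known. Alternative settings left out the floor, raised it to the 75 percentile, centred arrays on medians, applied quantile normalization, took off a lowess trend (fraction 0.3), averaged a gene's probe sets, set levels below the floor at it, counted at 1.5-fold or 3-fold, or used the other WT fructose array. The scripts were tested on simulated data. Tools were Python 3.11.15, numpy 2.4.6, pandas 2.3.3, statsmodels 0.14.6 and matplotlib 3.10.9.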

Additional observations from a re-analysis of the deposited data

Results flagged for a closer look

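Egr1 drew attention because its differences ran in opposite directions, each past 2-fold, in the 2 WT fructose pools. Over the chow array it stood at -1.50 in the 3-week WT pool and at 2.46 in the 2-week WT pool. Over the Chrebp-null array it stood at -1.56 and 2.40. Each pair shares its reference array, each pool is 1 array, and the difference between the pools was not tested.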

How the results depend on the processing

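With 1 array per group the choice of WT fructose array mattered most. With the other WT fructose array, 2 members were at least 2-fold lower (1.41% of all genes) and 1 higher (0.783%) in the fructose comparison. The median there was -0.16, and Egr1 stood at 2.46. In the Chrebp-null comparison the other array gave 0 lower (1.95%) and 4 higher (3.38%), with a median of 0.78 and Egr1 at 1.56. A floor at the 75 percentile left 5 members assessed in each comparison, with Nr4a1 only in the fructose and Egr1 only in the Chrebp-null comparison. At that floor 2 members were lower on fructose (1.78% of all genes). The Chrebp-null median was -0.22, over fewer genes than the main median. Quantile normalization and trend removal each left 1 member at least 2-fold higher in the Chrebp-null comparison (1.55% and 1.20% of all genes). A 1.5-fold threshold gave 3 members lower there, where 3.79% of all genes were, and put Jun, Btg2 and Fos higher (9.16%). A 3-fold threshold gave 1 lower on fructose (0.128% of all genes). In the Chrebp-null comparison it gave 1 higher (0.395%), with Egr1 still lower (0.464%). The other settings moved no count of members past 2-fold by over 1.5 times. They moved no median of the members by more than 0.24, a spread estimated from both WT fructose arrays. Those pools are of different mice and feeding times, so this spread holds pool differences as well as array noise. Over all genes, the floor at the 75 percentile gave 40 higher on fructose against 75. In the Chrebp-null comparison it gave 87 higher and 110 lower against 236 and 166. That floor also left fewer genes assessed, 5800 against 11717 on fructose and 5889 against 11631 in the Chrebp-null comparison. As a share of the genes assessed, only those higher in the Chrebp-null comparison became fewer. The other WT fructose array gave 398 higher in the Chrebp-null comparison, and trend removal 140. At 1.5-fold the counts were 418 higher and 826 lower on fructose and 1065 and 441 without Chrebp, and at 3-fold 14 and 15, and 46 and 54. Outside the other-array setting, no member's difference changed sign or moved by more than that spread under the scalings and floors tried. Averaging probe sets changes no member's level, since each has 1, but in the fructose comparison it took the lower AP-1 relatives and EGR, NR4A and KLF relatives from 1 to 0 each and the YAP and SRF targets from 2 to 1, with their median at -0.22 in place of -0.65. No paired analysis was possible because each group has 1 array. Levels near the floor limit Fos and Ier3.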
